A study of Homo sapiens with 8 samples.

Results

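The genes described here were HSPA5, HSP90B1, CALR, DNAJB9, SDF2L1, PDIA4, XBP1, HERPUD1, EDEM1 and SEL1L, which encode chaperones of the endoplasmic reticulum (ER) and known targets of the transcription factors XBP1 and ATF6. They were taken by symbol, as all probe sets that carry no other gene symbol. All 10 genes were found, with 36 probe sets among 49293, and they were 10 of the 18239 genes on the array. The samples came from 4 lines of oral squamous cell carcinoma (OSCC), namely HSC2, HSC3, Ca9-22 and SAS-L1. Each was transfected for 24 h with either miR-375-3p mimic or miR-NT, a non-targeting control mimic, at 20 nM, and RNA was taken 48 h after the start. In the study's own PCR assay miR-375-3p was not detected in these lines. There was 1 Affymetrix Human Genome U219 array for each line and condition, 8 in all. With 1 array per line and condition, the response of a single line could not be tested. The p-values of the mimic describe the spread among the 4 pairs of arrays, which limma moderates by the spread over all genes. In such bulk RNA, fewer cells that express a gene and less of its RNA per cell cannot be told apart.

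The ER folds secreted and membrane proteins. When unfolded proteins build up there, the unfolded protein response (UPR) is switched on through the sensors IRE1 (gene ERN1), PERK (gene EIF2AK3) and ATF6. IRE1 splices the XBP1 transcript into the form that encodes an active factor, and cleaved ATF6 enters the nucleus. Both factors raise the transcription of chaperones, folding enzymes and the machinery of ER-associated degradation (ERAD), which sends misfolded proteins to the proteasome, while PERK acts through ATF4 and DDIT3.

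The introduced miRNA is shown because its seed sets which transcripts it can bind. From RefSeq (GRCh38.p14) its mature sequence lies at chr2:219001648-219001669 on the minus strand, and capitals mark the seed, bases 2 to 8.
hsa-miR-375-3p: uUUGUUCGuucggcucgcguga
The promoter stretches of 30 bases that follow hold the letters of elements known to be bound by ATF6 or XBP1, and a match is a description, not a tested site. RefSeq gave 12 windows for the 10 genes, each of 300 bases around a gene start (GRCh38.p14). They were searched on both strands for the ER stress response element ERSE, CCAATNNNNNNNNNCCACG, for ERSE-II, ATTGGNCCACG, and for the UPR element TGACGTGG. All 3 elements hold CCACG or its complement CGTGG, so their matches could overlap. Capitals mark the matched letters, and positions count from the gene start.
HSPA5, ERSE at -66 to -48, chr9:125241385-125241414, minus strand: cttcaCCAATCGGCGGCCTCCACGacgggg
HSP90B1, ERSE at -194 to -176, chr12:103930211-103930240, plus strand: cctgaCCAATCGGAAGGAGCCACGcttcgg
HSP90B1, ERSE read from the other strand at -89 to -71, chr12:103930316-103930345, plus strand: gggtgCGTGGTGCGGCGCGATTGGtgggtt
CALR, ERSE read from the other strand at -225 to -207, chr19:12938379-12938408, plus strand: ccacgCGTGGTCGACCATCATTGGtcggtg
XBP1, ERSE at -52 to -34, chr22:28800597-28800626, minus strand: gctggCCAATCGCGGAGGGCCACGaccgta
SDF2L1, ERSE-II read from the other strand at -188 to -178, chr22:21642105-21642134, plus strand: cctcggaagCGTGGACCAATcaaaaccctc
HERPUD1, ERSE-II at -117 to -107, chr16:56932016-56932045, plus strand: cggacgccgATTGGGCCACGttgggagagt
A match to ERSE or ERSE-II was found for 6 of the 10 genes, in 6 of their 12 windows, and in 0.131% of the 35116 windows of all genes. The 10 genes were taken as ER chaperones and known targets of XBP1 and ATF6, so this contrast is not a test. The letters of the UPR element were in none of the 12 windows and in 0.729% of all. DNAJB9, PDIA4, EDEM1 and SEL1L had no match to the 3 elements in these windows, which says nothing of sites outside them.

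With the miR-375-3p mimic, DNAJB9 rose, PDIA4 fell, and the other 8 genes did not pass the test. DNAJB9 was 1.55-fold higher and PDIA4 1.54-fold lower, whereas the main chaperones HSPA5, HSP90B1 and CALR had mean log2 differences between -0.02 and 0.06. Rose and fell are used only at an adjusted p under 0.05, from limma with a block for each line, Benjamini-Hochberg adjustment over 18239 genes and the brightest probe set of each gene. Of all genes, 5.19% fell and 7.36% rose by this rule, and among the 4119 genes at least as bright as the dimmest of the 10 it was 12.5% and 15.2%. One gene of 10 in each direction was thus near the background. All differences are log2 signals of the mimic minus miR-NT, with the SD over the 4 lines. The median of the 10 genes was 0.07, beside 0.03 over all genes.

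**Figure D1:**
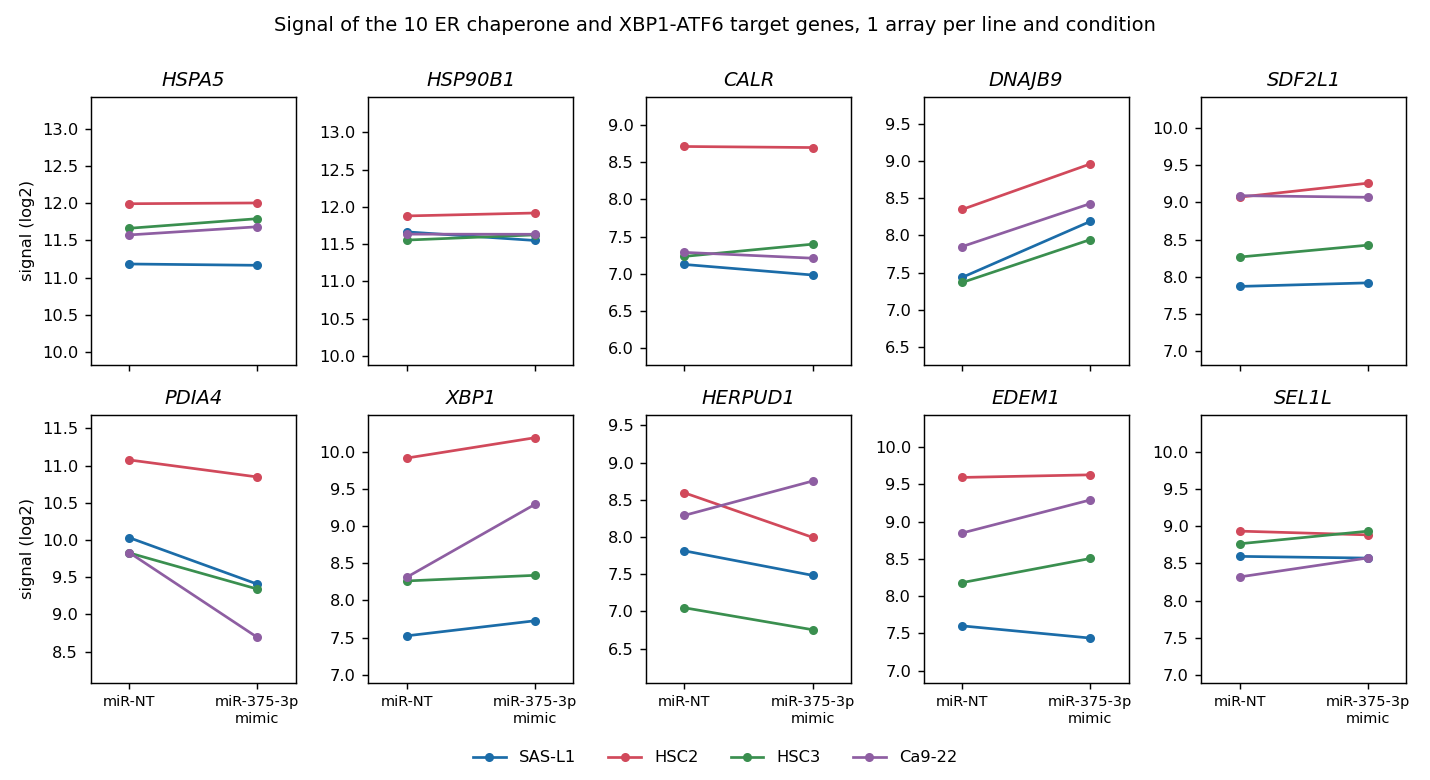
Log2 signal of each of the 10 genes (vertical axis, the same span of log2 units in every panel) with miR-NT and with the miR-375-3p mimic (horizontal axis), where each point is 1 array and each line joins the arrays of a cell line. DNAJB9 climbed and PDIA4 dropped in all 4 lines, those of HSPA5, HSP90B1 and CALR are nearly level, and HERPUD1 is higher with the mimic in Ca9-22 and lower in the other 3.

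HSPA5 (also called BiP or GRP78) is the main Hsp70 chaperone of the ER and holds the UPR sensors inactive. From miR-NT to the mimic, its log2 signal went from 11.99 to 12.00 in HSC2, from 11.66 to 11.79 in HSC3, from 11.57 to 11.68 in Ca9-22 and from 11.18 to 11.17 in SAS-L1. The conditions overlapped almost completely and the order of the lines stayed the same. The difference was 0.06 ± 0.07 (SD, n = 4 lines; 95% interval -0.09 to 0.20; limma adjusted p = 0.646). All 6 probe sets of HSPA5 had a mean difference above 0. It was 0.02 to 0.06 in the 5 bright ones and 0.31 ± 0.37 in the dimmest, which had a miR-NT mean of 6.47 (adjusted p = 0.234 over all probe sets).
HSP90B1 (GRP94) is the Hsp90 chaperone of the ER, which folds integrins and Toll-like receptors among its clients. With miR-NT and then the mimic it had 11.88 and 11.92 in HSC2, 11.66 and 11.55 in SAS-L1, 11.63 and 11.63 in Ca9-22, and 11.55 and 11.62 in HSC3. In this brightest probe set no line moved by more than 0.12 in either direction. The difference was -0.00 ± 0.08 (95% interval -0.15 to 0.15, adjusted p = 0.990). The means of its 7 probe sets lay between -0.01 and 0.05. Within them SAS-L1 was lower in all 7, down to -0.21, and HSC3 was higher in all 7, up to 0.24. HSC2 and Ca9-22 had both signs.
CALR is a calcium-binding lectin chaperone of glycoproteins. Its signal went from 8.71 to 8.70 in HSC2, from 7.29 to 7.21 in Ca9-22, from 7.23 to 7.40 in HSC3 and from 7.12 to 6.98 in SAS-L1. HSC2 stood apart in both conditions, and in this brightest probe set the largest difference of a line between them was 0.16, in HSC3. The difference was -0.02 ± 0.13 (95% interval -0.19 to 0.15, adjusted p = 0.924). A second, dimmer probe set of CALR had -0.15 ± 0.23, with -0.46 in Ca9-22 and -0.16 to 0.04 in the other lines. The signs of HSP90B1 and CALR, both close to 0, flipped under some settings.

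DNAJB9 (ERdj4) is a J-domain partner of HSPA5 that is known to bring it to IRE1 and so to restrain that sensor. The signal went from 8.35 to 8.96 in HSC2, from 7.85 to 8.43 in Ca9-22, from 7.44 to 8.19 in SAS-L1 and from 7.37 to 7.94 in HSC3. Every line was higher with the mimic, by 0.58 to 0.75, although the ranges of the conditions overlapped, since HSC2 with miR-NT was brighter than SAS-L1 and HSC3 with the mimic. The difference was 0.63 ± 0.08 (n = 4 lines; 95% interval 0.48 to 0.78; limma adjusted p = 0.00525). The spread over the lines was smaller than the median SD of all genes, 0.15. DNAJB9 passed the test with any 1 line left out, at adjusted p from 0.0146 to 0.0372.
A further probe set of DNAJB9, with a miR-NT mean of 5.57, also rose, with a difference of 0.67 ± 0.26 (adjusted p = 0.0152 over all probe sets). The third had a miR-NT mean of 2.84, close to the lowest value of the table, 2.54, and a difference of 0.01. All 3 are of the types _s_at and _x_at, which can bind related transcripts, so the rise could not be read from any other type of probe set.
SDF2L1, a subunit of the ER complex that works with HSPA5 and its J-domain partners, did not pass the test. It went from 9.09 to 9.07 in Ca9-22, from 9.07 to 9.26 in HSC2, from 8.27 to 8.43 in HSC3 and from 7.87 to 7.92 in SAS-L1. The difference was 0.09 ± 0.10 (95% interval -0.06 to 0.25, adjusted p = 0.453), and this interval lay below that of DNAJB9.

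PDIA4 (ERp72) is a protein disulfide isomerase, an enzyme that forms and rearranges disulfide bonds in the ER. Its signal went from 11.08 to 10.85 in HSC2, from 10.03 to 9.41 in SAS-L1, from 9.83 to 8.69 in Ca9-22 and from 9.83 to 9.34 in HSC3. Every line was lower with the mimic, from -0.23 in HSC2 to -1.14 in Ca9-22, and Ca9-22 went from the level of HSC3 to the lowest of the 4. HSC2, the brightest line, moved least. The difference was -0.62 ± 0.38 (n = 4 lines; 95% interval -0.97 to -0.27; limma adjusted p = 0.0420). This call lay close to the threshold and was lost without SAS-L1 (adjusted p = 0.104), HSC2 (0.0617), HSC3 (0.0888) or Ca9-22 (0.0644), where the difference ran from -0.75 to -0.45.
The 3 probe sets of PDIA4 moved alike, with differences of -0.62 ± 0.38, -0.64 ± 0.42 and -0.72 ± 0.39, and adjusted p of 0.0444, 0.0523 and 0.0307 over all probe sets. In Ca9-22 the dimmest of them went from 8.16 to 6.88.

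**Figure D2:**
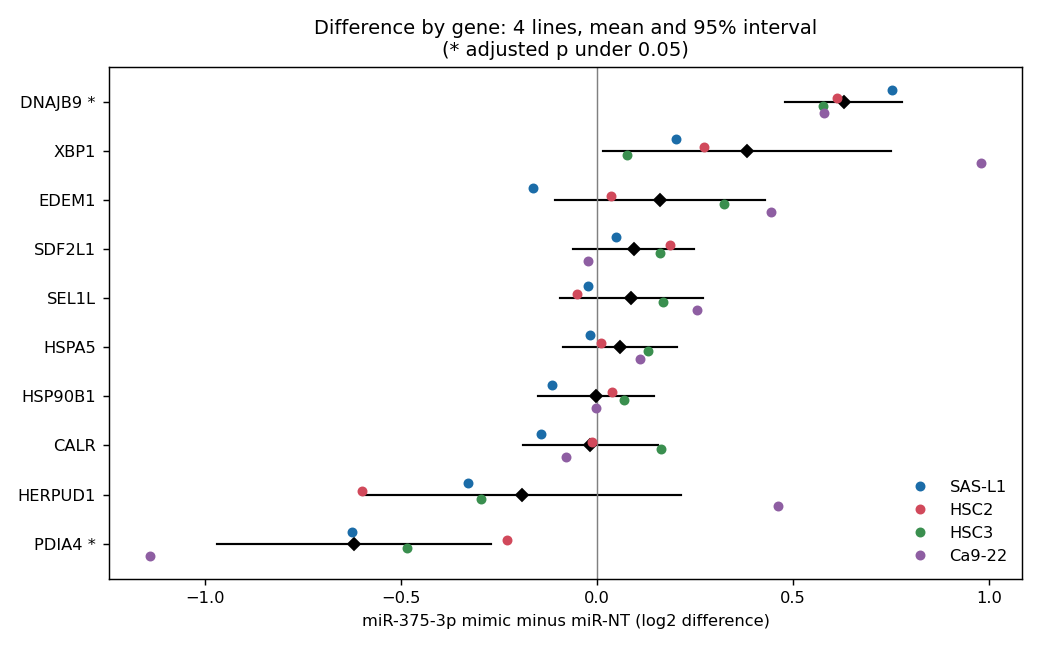
Log2 difference of the miR-375-3p mimic minus miR-NT (horizontal axis) for the 10 genes, where dots are the 4 cell lines, diamonds the mean and bars its 95% interval from limma. The dots of DNAJB9 all lie right of 0.5 and those of PDIA4 all left of 0, while Ca9-22 is the rightmost dot of XBP1 and HERPUD1 and the leftmost of PDIA4.

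XBP1 encodes the transcription factor itself and is read here by 1 probe set, and the files do not say whether it tells the spliced from the unspliced form. It went from 9.91 to 10.19 in HSC2, from 8.31 to 9.29 in Ca9-22, from 8.26 to 8.34 in HSC3 and from 7.52 to 7.73 in SAS-L1. The difference was above 0 in every line, with 0.98 in Ca9-22 and 0.08 to 0.27 in the others. Ca9-22 and HSC3, close together with miR-NT, stood well apart with the mimic. The difference of 0.38 ± 0.41 did not pass the test (95% interval 0.02 to 0.75, unadjusted p = 0.0433, adjusted p = 0.174). Without Ca9-22 it was 0.18 (adjusted p = 0.233).

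HERPUD1 is an ER membrane protein that helps to assemble the ERAD ubiquitin ligase complex. The signal went from 8.59 to 8.00 in HSC2, from 8.29 to 8.75 in Ca9-22, from 7.81 to 7.49 in SAS-L1 and from 7.05 to 6.75 in HSC3. The lines went in opposite directions, with 0.46 in Ca9-22 and -0.60 to -0.30 in the other 3. Ca9-22 thereby passed HSC2 as the line with the highest signal. The mean of -0.19 ± 0.45 did not pass the test (95% interval -0.60 to 0.22, adjusted p = 0.575). Without Ca9-22 it was -0.41 (adjusted p = 0.0642). The 3 bright probe sets shared this pattern, with means of -0.19, -0.18 and -0.15, while the fourth, at a miR-NT mean of 3.21, had 0.32.
EDEM1, which hands misfolded glycoproteins to ERAD, went from 9.59 to 9.63 in HSC2, from 8.85 to 9.29 in Ca9-22, from 8.18 to 8.51 in HSC3 and from 7.60 to 7.44 in SAS-L1. Its difference of 0.16 ± 0.28 (95% interval -0.11 to 0.43, adjusted p = 0.454) ran from -0.16 in SAS-L1 to 0.44 in Ca9-22. The other 4 probe sets of EDEM1, all dimmer, had 0.02 to 0.13. SEL1L, the adaptor of the ERAD ubiquitin ligase SYVN1, went from 8.93 to 8.88 in HSC2, from 8.76 to 8.93 in HSC3, from 8.59 to 8.57 in SAS-L1 and from 8.32 to 8.57 in Ca9-22. Its difference was 0.09 ± 0.15 (95% interval -0.09 to 0.27, adjusted p = 0.562). Among its 4 probe sets a dimmer one, with a miR-NT mean of 6.15, had 0.31 ± 0.25 (adjusted p = 0.112 over all probe sets).

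Counted by probe set, 2 of the 36 fell, both of PDIA4, and 2 rose, both of DNAJB9, while 5.25% of all probe sets fell and 5.81% rose. Of the 36, 30 had a miR-NT mean above the median of all probe sets, 5.00. By sign alone, DNAJB9 and XBP1 were higher in each of the 4 lines, as were 20.9% of all genes, and PDIA4 was lower in each, as were 11.9%. SAS-L1 had 7 of the 10 genes lower with the mimic, HSC2 and Ca9-22 had 4, and HSC3 had 2. The median over the 10 genes ran from -0.07 in SAS-L1 through 0.02 in HSC2 and 0.14 in HSC3 to 0.18 in Ca9-22, beside 0.01 to 0.05 over all genes. Ca9-22 had the largest difference of the 4 lines, in either direction, for 4 of the 10 genes and for 27.9% of all genes. A difference in response between lines was not tested, because no line had a second array of a condition.

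**Figure D3:**
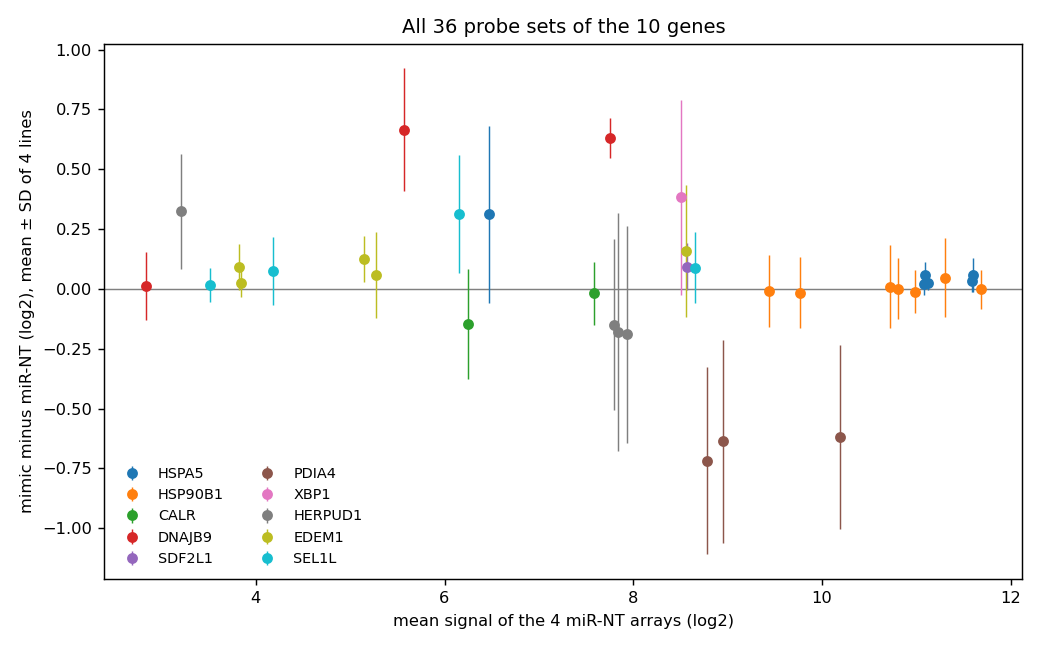
Mean log2 difference of the miR-375-3p mimic minus miR-NT (vertical axis, bars are the SD of the 4 lines) against the mean log2 signal of the 4 miR-NT arrays (horizontal axis) for the 36 probe sets, coloured by gene. The 3 probe sets of PDIA4 lie between -0.72 and -0.62, a pair of DNAJB9 lies at 0.63 and 0.67, and those of HSP90B1 and the bright ones of HSPA5 lie close to the zero line.

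Most of the 10 genes differed more between lines than between conditions. With miR-NT the range over the 4 lines was 2.39 for XBP1, 1.99 for EDEM1, 1.59 for CALR, 1.54 for HERPUD1, 1.25 for PDIA4, 1.22 for SDF2L1, 0.98 for DNAJB9, 0.81 for HSPA5, 0.62 for SEL1L and 0.32 for HSP90B1, where the median of all genes was 0.42. Using both arrays of a line, 9 of the 10 genes differed between lines (limma F-test, adjusted p under 0.05), all but HSP90B1 (adjusted p = 0.0719). This held for 42.7% of all genes, and for 76.2% of the genes at least as bright as the dimmest of the 10.
HSC2 had the highest miR-NT signal of the 4 lines for 9 of the 10 genes, the exception being SDF2L1, where Ca9-22 had 9.09 and HSC2 9.07. HSC2 was the highest line for 29.5% of all genes and for 21.6% of those as bright. SAS-L1 was the lowest line for 5 of the 10 genes and for 22.7% of all genes. Between pairs of lines, 35 of 60 gene-by-pair contrasts passed, against 24.5% over all genes, with p-values adjusted over all genes and the 6 pairs together. The share of pairs was not computed for genes as bright, where the F-test share was higher (76.2% against 42.7%), so an excess cannot be read from it.
The order of the lines differed by gene. For CALR, HSC2 was 1.39 above HSC3 (adjusted p = 4.69e-04), the next line, and the other 3 did not differ among themselves beyond their spread. PDIA4 had the same shape, with HSC2 1.24 above SAS-L1 (adjusted p = 0.00693) and no difference among SAS-L1, HSC3 and Ca9-22 that passed. For XBP1, HSC2 was 1.25 above Ca9-22 (adjusted p = 0.00811), while Ca9-22 and HSC3, and HSC3 and SAS-L1, were not told apart as neighbours (adjusted p = 0.155 and 0.0689).
DNAJB9 was in the order HSC2, Ca9-22, SAS-L1 and HSC3, and only SAS-L1 and HSC3 were not told apart (adjusted p = 0.272). EDEM1 was in the order HSC2, Ca9-22, HSC3 and SAS-L1, where HSC2 and Ca9-22 just missed the threshold (adjusted p = 0.0504) and the other neighbours differed. SDF2L1 split into HSC2 with Ca9-22 (adjusted p = 0.589) above HSC3 and then SAS-L1. For HSPA5, SAS-L1 was 0.45 below its neighbour Ca9-22 (adjusted p = 0.0110), and the neighbours above it were not told apart. For HERPUD1 and SEL1L no neighbours in the order differed beyond their spread.
Over the 8 arrays, HSPA5 was set beside 9110 genes outside the 10 with a mean signal at or above the median of all genes. Those that ran most like HSPA5 were MAPKBP1, FOXO1, RNF144B, RAB22A and SHB. Their Pearson's r was 0.986 to 0.994, the highest picked from so many candidates. Among the 10 genes, r with HSPA5 was 0.90 for EDEM1, 0.88 for XBP1, 0.80 for CALR and SDF2L1, and 0.69 for HSP90B1. It was 0.64 for SEL1L, 0.55 for DNAJB9, 0.45 for PDIA4 and 0.21 for HERPUD1. These values describe 8 arrays that come in 4 pairs from the same lines and differ between lines.

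The rest of the pathway was read from 6 lists of further ER stress genes, of which 123 of 128 genes were measured. With the mimic 8 of these fell and 23 rose, or 6.50% and 18.7%, with a median difference of 0.15. Over all genes it was 5.19% and 7.36%, and among the 4119 bright genes 12.5% and 15.2%. With 1 line left out, 3 to 7 of the 123 genes fell and 2 to 11 rose. The shares over all genes and over bright genes are also the background of each single list.
Of 17 UPR sensors and regulators, 1 fell and 2 rose, with a median of 0.11. EIF2AK3, the sensor PERK, was 1.46-fold higher with 0.54 ± 0.18 (limma adjusted p = 0.0135, and 0.0538 without HSC2), and 0.33 without _x_at and _s_at probe sets. ATF6B, a relative of ATF6, was 1.43-fold higher, a call that passed in none of the fits with 1 line left out (adjusted p 0.0508 to 0.123), nor with its probe sets averaged (0.28, adjusted p = 0.103). CREB3, an ER-tethered factor of the same family, was 1.62-fold lower with -0.69 ± 0.31 (adjusted p = 0.0189), and did not pass without HSC2, HSC3 or Ca9-22 (0.0532 to 0.0714). The other sensors did not pass, with 0.07 ± 0.06 for ERN1 and 0.11 ± 0.07 for ATF6.
Of 26 other ER chaperones and cochaperones, 2 fell and 2 rose, with a median of 0.10. HSPA13, a microsomal Hsp70 relative, was 1.59-fold higher, but passed in none of the fits with 1 line left out (adjusted p 0.0539 to 0.104), nor with its probe sets averaged (0.119). SDF2, the paralog of SDF2L1, was 1.28-fold higher (adjusted p = 0.0344), and did not pass without SAS-L1, HSC2 or HSC3 (0.0896 to 0.112). UGGT2, a glucosyltransferase relative of glycoprotein quality control, was 1.40-fold lower in its brightest probe set, with 0.26 when _x_at and _s_at probe sets were left out, so its direction was not settled, and it did not pass without HSC2, HSC3 or Ca9-22 (adjusted p 0.0687 to 0.0907). HYOU1 and CANX, which like the main chaperones did not pass, had -0.18 ± 0.21 and 0.09 ± 0.03.
Of 18 measured genes of the PDI family and of oxidative folding, 1 fell and 2 rose, with a median of 0.13. TMX3, a membrane-bound PDI, was 3.24-fold lower with -1.70 ± 0.66 (adjusted p = 0.0108, and 0.0537 without HSC2). With its probe sets averaged it had -0.62 (adjusted p = 0.00864). ERP29 and ERP44 were 1.35-fold and 1.22-fold higher, and neither passed in any of the fits with 1 line left out (adjusted p 0.0613 to 0.128 and 0.0724 to 0.0949). PDIA3 had 0.38 ± 0.51, P4HB 0.14 ± 0.12 and PDIA6 0.13 ± 0.09, none of which passed.

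**Figure D4:**
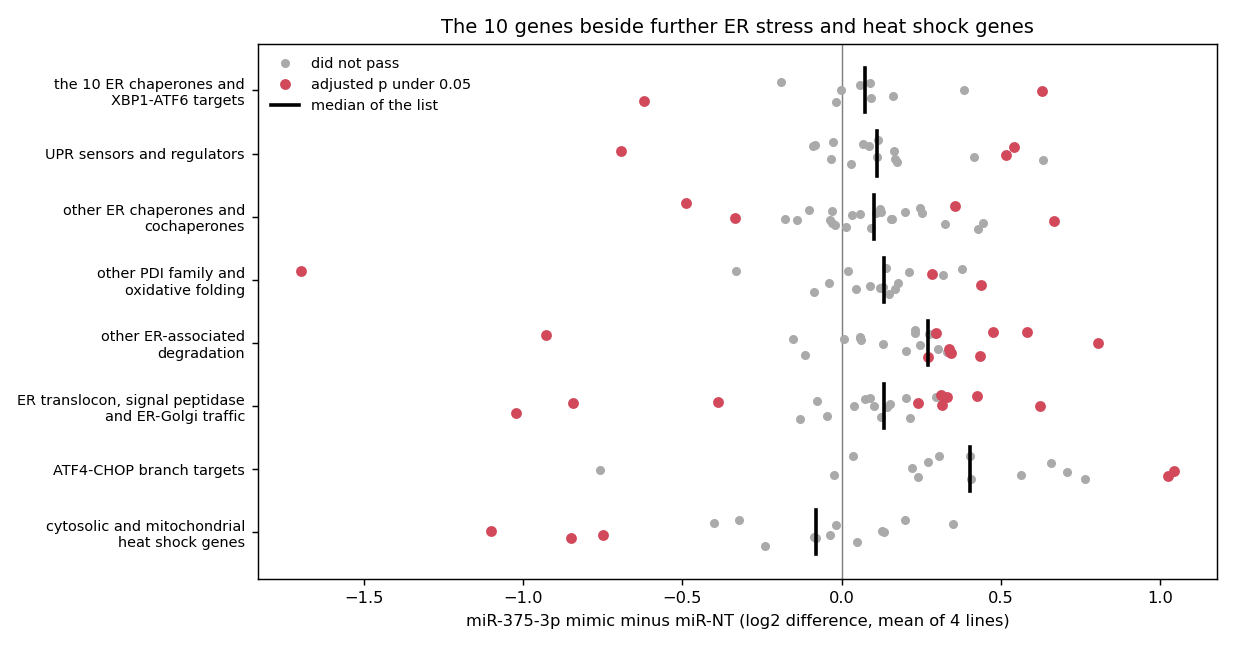
Mean log2 difference of the miR-375-3p mimic minus miR-NT (horizontal axis) for each measured gene of the 10 and of 7 further lists (vertical axis, points spread within a list for legibility), red where the adjusted p was under 0.05, with the median of each list as a bar. The median is 0.07 for the 10 genes, 0.27 for ERAD, 0.40 for ATF4-CHOP targets and -0.08 for heat shock genes.

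Of 25 measured ERAD genes beside HERPUD1, EDEM1 and SEL1L, 1 fell and 9 rose, or 4% and 36%, with a median of 0.27. DERL1, a channel component of ERAD, was 1.90-fold lower with -0.93 ± 0.07 (adjusted p = 0.00275), and passed with any 1 line left out. Without _x_at and _s_at probe sets it had -0.39 (adjusted p = 0.0433). The membrane ubiquitin ligases RNF5 and RNF139 rose by 0.80 and 0.58 on the log2 scale. RNF5 passed with any line left out, but had 0.06 (adjusted p = 0.709) when _x_at and _s_at probe sets were left out, and RNF139 just missed without HSC2 (0.0504). With averaged probe sets RNF5 had 0.43 and RNF139 0.32, and both passed. SYVN1, the ligase that SEL1L serves, was also among the 9, with 0.34 ± 0.12 (adjusted p = 0.0280), and is named because of this partnership. Of the 9, only RNF5 and RNF139 were followed in the fits with 1 line left out. Whether the others, SYVN1 included, pass without a line was not followed gene by gene.
Of 22 measured genes of the ER translocon, signal peptidase and ER-Golgi traffic, 3 fell and 6 rose, or 13.6% and 27.3%, with a median of 0.13. The 6 were SEC61B, SSR2, SSR4, SPCS1, SEC11A and SEC11C, all of the translocon or signal peptidase, as are most genes of this list. Of the 6, only SPCS1 was followed in the fits with 1 line left out. SPCS3 and SSR1, subunits of signal peptidase and of the translocon-associated complex, were 2.03-fold and 1.79-fold lower and passed with any 1 line left out. Without _x_at and _s_at probe sets they had -0.22 (adjusted p = 0.132) and -0.19 (0.316), and SSR1 also did not pass with averaged probe sets (-0.33, 0.0810). SPCS1, a further signal peptidase subunit, was 1.34-fold higher, had 0.28 with averaged probe sets, and did not pass without SAS-L1, HSC2 or HSC3 (0.0515 to 0.0715).
Of 15 targets of the ATF4-CHOP branch, 2 rose and 0 fell by limma (3 and 1 at an unadjusted p under 0.05), with a median of 0.40. Ca9-22 had the highest difference of the 4 lines for every gene of this list except VLDLR. TNFRSF10B, the gene at the median, had only -0.07 to 0.36 in the lines other than Ca9-22. The median can therefore not be read as a shift of like size in the 4 lines, and a difference between lines was not tested. ASNS, asparagine synthetase, was 2.06-fold higher with 1.04 ± 0.45 (adjusted p = 0.0148) and passed with any 1 line left out. SESN2, a stress-induced inhibitor of mTORC1 signaling, was 2.04-fold higher and did not pass without SAS-L1, HSC2 or HSC3 (0.0599 to 0.0938), or with averaged probe sets (0.0583). SESN2 differed by 1.97 in Ca9-22 and by 0.68 to 0.75 in the other lines, and Ca9-22 also had the highest difference of XBP1. DDIT3, which encodes CHOP and was listed with the regulators, had 0.63 ± 0.58 and did not pass (adjusted p = 0.112), with 1.48 in Ca9-22.
Of 15 cytosolic and mitochondrial heat shock genes, 3 fell and 0 rose by limma (6 and 1 at an unadjusted p under 0.05), with a median of -0.08. The falls were 20.0% of the list, beside 12.5% of bright genes, and each of the 3 was lost in at least 1 fit with a line left out. HSP90AA1, the inducible cytosolic relative of HSP90B1, was 2.14-fold lower with -1.10 ± 0.73 (adjusted p = 0.0443, and 0.0758 to 0.125 without HSC2, HSC3 or Ca9-22), and -1.73 without _x_at and _s_at probe sets. HSPA9, the mitochondrial relative of HSPA5, had -0.85 ± 0.27 (adjusted p = 0.00838, and 0.0504 without HSC2). HSPH1, a nucleotide exchange factor of cytosolic Hsp70, was 1.68-fold lower and did not pass without HSC2, HSC3 or Ca9-22 (0.0534 to 0.0853), with averaged probe sets (0.0666) or without _x_at and _s_at probe sets (0.0969).

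The labelled origin was checked with marker genes. All 9 measured epithelial markers were brighter with miR-NT than the median probe set, with means of 7.48 to 10.7. This was so for 1 of 8 fibroblast markers (2.83 to 5.02) and 2 of 7 immune and endothelial markers (3.20 to 6.36). Of the fibroblast markers 0 rose or fell by limma, with 0 lower and 0 higher at an unadjusted p under 0.05, and of the immune and endothelial markers 0, with 0 and 0. Of the 9 epithelial markers 2 fell and 0 rose by limma, with 4 lower and 1 higher at an unadjusted p under 0.05. The falls were 22.2%, beside 5.19% of all genes and 12.5% of bright genes. They were the keratins KRT5 and KRT8, with -1.73 ± 1.04 and -2.01 ± 1.41 (limma adjusted p = 0.0320 and 0.0486). KRT5 and KRT8 were not followed with a line left out, and the part of these falls in the results above was not tested. Array medians lay between 4.96 and 5.00, and the small number of arrays limits the precision.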

How the data were processed

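RNA of 4 OSCC lines was measured on U219 arrays after miR-NT or miR-375-3p mimic transfection. The authors made the deposited log2 values by RMA in GeneSpring GX, which corrects background, normalizes the arrays together and summarizes probes. Compression at low signals and probe sets shared by related transcripts can shrink or blur differences. The labels name another labeling kit (3′ IVT Express) than the paper's methods (3′ IVT PLUS). Probe sets with 1 symbol were brought to RefSeq symbols (45178 of 45259 matched), and each gene took its brightest probe set over all arrays. limma 3.58.1 in R 4.3.3 tested mimic against miR-NT with a block for each line, and lines by an F-test and 6 contrasts, at a Benjamini-Hochberg adjusted p of 0.05 over all genes or all 49293 non-control probe sets. Lines pair the arrays by design, and deviations from condition means correlated at 0.836 to 0.886 within lines. Intervals are 95%. From each list up to 3 genes with the smallest p past the threshold were named. So were the 5 genes most correlated with HSPA5 among those at or above the median signal. Values of ERN1, ATF6, HYOU1, CANX, PDIA3, P4HB, PDIA6, DDIT3, SYVN1, TNFRSF10B, KRT5 and KRT8 were added after they were seen. SEC61B, SSR2, SSR4, SEC11A, SEC11C and VLDLR were also named outside the naming rule. The 10 genes and the lists were chosen with earlier results of these data known. The fits were tested on simulated data. Alternatives covered normalization, probe set choice, dim signals, the variance model, other tests and each line left out. Listed genes without a single-symbol probe set were not analysed here.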

Additional observations from a re-analysis of the deposited data

Results flagged for a closer look

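Of 30 groups of 4 values examined (miR-NT level, mimic level and difference of each gene), 2 held a value far from the rest, and chance flags about 1 in 20 groups. With miR-NT, the log2 signal of CALR was 8.71 in HSC2, against 7.12 to 7.29 in the other lines. That of PDIA4 was 11.08 in HSC2, against 9.83 to 10.03.
For 7 genes the difference of the mimic minus miR-NT had opposite signs in different lines, which was not tested because each line had 1 array per condition. Between the highest and the lowest line the difference changed by 1.06 for HERPUD1 (Ca9-22 against HSC2) and by 0.61 for EDEM1 (Ca9-22 against SAS-L1). It changed by 0.31 for CALR, 0.30 for SEL1L, 0.21 for SDF2L1, 0.19 for HSP90B1 and 0.15 for HSPA5.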

How the results depend on the processing

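Without the replicate block, 0 of the 10 genes passed by limma, as did 0 of their probe sets and 0 of the other ER stress genes, and none of the 10 genes had an unadjusted p under 0.05. The methods' t-test gave the same counts, with 0 of the 10 genes unadjusted. A paired t-test also gave 0 for each, with 2 of the 10 genes unadjusted, against 3 by limma with the block. Over all genes 946 fell and 1342 rose. This became 6 and 0 without the block, 0 and 0 by the methods' t-test, 0 and 1 by the paired t-test, 521 and 352 over 1.5-fold, and 350 to 797 and 318 to 858 with a line left out. DNAJB9 was lost without the block (adjusted p = 0.810) and by both t-tests, passed in the other 7 fits that gave its value, and gave no value without _x_at and _s_at probe sets, where 0 of the 10 genes rose. PDIA4 kept its direction in the 9 limma fits that gave its value and passed in 4, and was lost by both t-tests. With a line left out, 0 of the 10 genes fell, 0 to 2 of their probe sets fell and 1 to 3 rose, and 3 to 7 of the other ER stress genes fell and 2 to 11 rose. Their falls were 5 when a gene's probe sets were averaged, 4 without _x_at and _s_at probe sets and 5 over 1.5-fold, where 5 rose. HSP90B1 turned its sign after repeated quantile normalization (0.023), with averaged probe sets (0.0029) and without a line (-0.026 to 0.036). CALR did without a line (0.0028 and 0.024, lowest -0.078), and UGGT2 without _x_at and _s_at probe sets (0.26). The cause of these changes was not tested, but a fit without a line has fewer arrays. Dim signals limit 6 of the 36 probe sets.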
